A study of Sus scrofa with 72 samples.

Results

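The 10 genes described here, EIF4H, TNFRSF17, NTPCR, GRID1, PDE1C, ND5, MPP6, TMEM225B, GNA14 and CELA2A, were chosen because their signal differed between 2 pig breeds on every day of a cell culture experiment. They are 10 of 13615 genes named here and are measured by 20 of the 47722 probe sets of the array that are not controls. A probe set is a group of short probes whose brightness is summarized to 1 value for a transcript. The platform annotation names 6 of the genes (14 probe sets), and NTPCR, ND5, TMEM225B, GNA14 and a further MPP6 probe set (6 probe sets) take their names from the additional files of the study. The breed difference itself chose the genes and is therefore given below as a description without a test. Their response to the adipogenic medium, their change over time and their difference between tissues were tested.

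Synovial mesenchymal stem cells are stromal cells of the joint lining that divide in culture and form fat cells when they are exposed to adipogenic hormones. The 10 genes belong to no common pathway and range from a translation factor to a subunit of the respiratory chain and a pancreatic protease. Adipogenesis is known to involve cyclic nucleotide signalling, the enzymes and G proteins that shape it, and a rise of mitochondrial activity, so that a few of the genes could be read beside the others of their pathway.

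The cells were taken from male piglets of 59 days, of the breeds Angeln Saddleback (AS) or German Landrace (DL), and from 2 tissues of the knee joint, adipose synovium of the infrapatellar fat pad (FP) and fibrous synovium of the joint capsule (FS). They were grown in adipogenic induction medium (AIM) for 1, 4, 7 or 14 days, or in complete culture medium (CCM) for 0, 1, 4, 7 or 14 days, which gave 36 groups of 2 cultures each and 72 arrays. For each breed and tissue the cells of 3 pigs were pooled and the same pool was used throughout, so that a breed and its pool of pigs cannot be told apart, and a p-value covers no more than the variation among repeat cultures of 1 pool. All 8 stromal markers with a probe set, among them CD44, THY1 and ENG, were above array background in all 68 arrays used, as were 5 of 7 markers of B and plasma cells and 2 of 6 of other leukocytes (CD14 and AIF1). Of the other leukocyte markers, CD2 was above it in 66, LCP1 in 30, PTPRC in 1 and CD3E in 0 of 68 arrays. CD2 was higher in AS cells by 0.49 (limma, adjusted p = 0.0050). Of 7 tested stromal markers, ITGB1, THY1 and ENG were lower in AS cells by 0.16, 0.21 and 0.19 (adjusted p = 8.2e-05, 4.2e-04 and 0.0022). Of the fat cell markers, ADIPOQ, LIPE and PLIN1 were higher in AS cells by 0.72, 0.46 and 0.30 (limma, adjusted p = 6.6e-04, 0.0034 and 0.0076), and FABP4 (0.26) and CIDEC (0.00) did not pass. Of 2 tested endothelial markers PECAM1 was lower in AS cells by 0.24 (limma, adjusted p = 0.0022). Of 2 tested muscle markers ACTA1 was lower by 0.37 (limma, adjusted p = 6.2e-04). Over all tested probe sets 7.58% were called higher and 10.7% lower in AS cells. The part of these markers in the differences below was not tested. In whole cultures fewer cells of a type and less RNA per cell cannot be told apart.

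Of the 72 arrays, 4 were left out, as the rule that chose the genes set: AS FP on day 7, replicate 2, in AIM and in CCM, DL FP on day 0, replicate 2, and DL FS in CCM on day 1, replicate 2. The profiles of these arrays, looked at afterwards, stood apart from their labels. Over the tested probe sets their median correlation with arrays of the labelled state was -0.50, -0.53, 0.35 and 0.24 in this order, against 0.59, 0.76, 0.83 and 0.68 with arrays of the state of the other left out array of the same breed. Each breed kept 34 arrays, and 4 of the 36 groups held 1 array. For the 3 probe sets that separated the breeds completely (below), all 12 values of the 4 arrays lay in the range of their labelled breed and 0 in that of the other breed.

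Values are log2 intensities, so that a difference of 1 is a doubling. Array background was taken as the mean of the 69 background control probe sets of each array, which lay between 3.13 and 3.67. Single background controls had means between 1.01 and 7.01, so that a value near this mean marks a dim probe set rather than an absent transcript. GFAP and RBFOX3, genes of glia and neurons, had mean values of 4.56 and 4.99 in AS cells and 4.58 and 5.04 in DL cells and were above background in all 68 arrays. The other neural markers with a probe set were dimmer, with SNAP25 above background in 0 and SYT1 in 7 of 68 arrays. Among the 20 probe sets, 10 were above background in all 68 arrays, and 13 passed the filter on low and invariant values and were tested. A probe set that was dim in 1 breed passed this filter through the other breed, as EIF4H probe set SNOWBALL_026545_s_st did through AS and TNFRSF17 and TMEM225B through DL.

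Across the 13 tested probe sets, 3 were higher and 10 lower in AS than in DL cells, and each kept its direction in 9 of 9 combinations of medium and day. The absolute differences ranged from 0.65 to 3.55. The median of the signed differences was -1.23, while that of all 18335 tested probe sets was -0.02. In 3 probe sets, those of EIF4H, TNFRSF17 and NTPCR, no AS array overlapped with a DL array. Over all tested probe sets the breeds did not overlap in 15 (0.0818%), of which 6 were higher in AS (0.0327%) and 9 higher in DL (0.0491%). Ordered by the gap between the breeds, TNFRSF17 was the first of these 15 with 1.39, EIF4H the second with 1.32 and NTPCR the eighth with 0.35. As the genes were chosen by this difference, nothing is read from these counts.

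**Figure D1:**
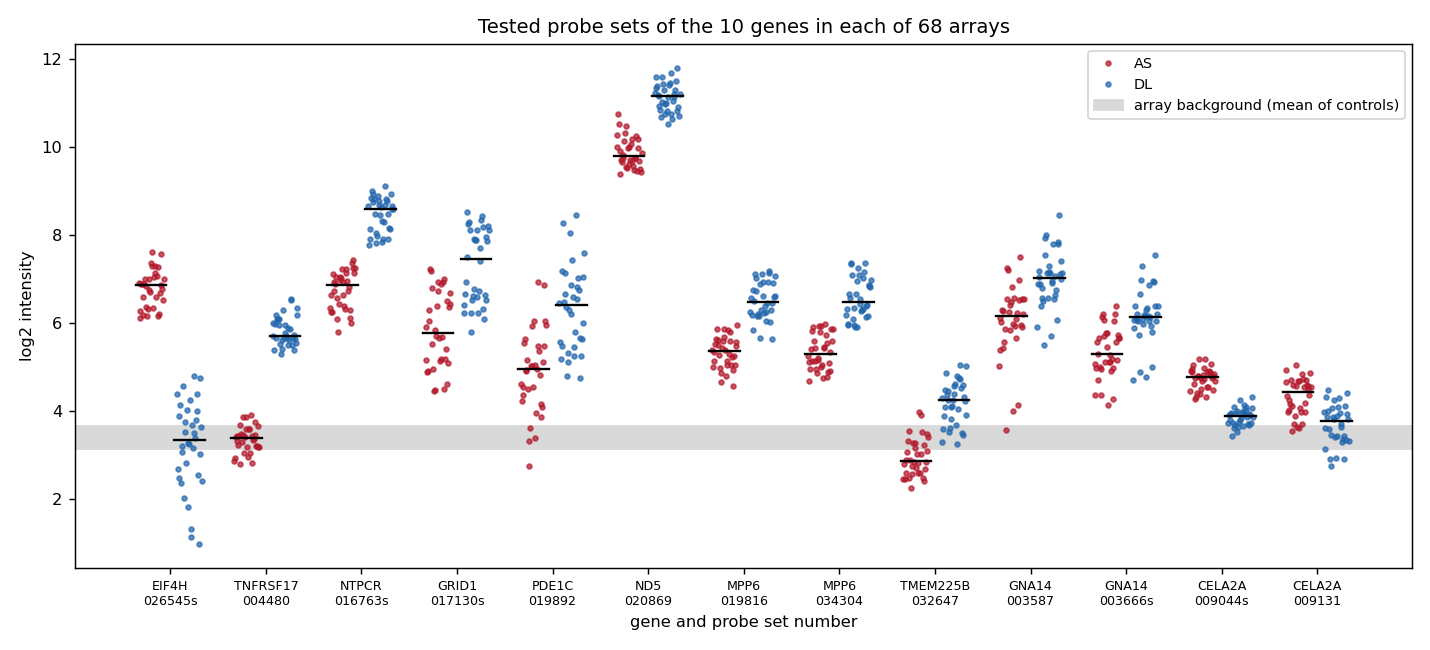
Log2 intensity (vertical axis) of the 13 tested probe sets of the 10 genes, labelled by gene and by the number in the probe set ID, with 1 point for each of 34 AS arrays (red, left) and 34 DL arrays (blue, right), a black line at each median and a grey band for the range of array background. EIF4H in DL cells and TNFRSF17 and TMEM225B in AS cells lay around the band, whereas NTPCR, GRID1, ND5 and GNA14 lay above it in nearly every array of both breeds.

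EIF4H, a factor that stimulates the helicase of translation initiation, had 3 probe sets with different behaviour. The first, SNOWBALL_022315_st, had 9.68, 9.97 and 10.45 (lowest, median and highest) in 34 AS arrays and 9.70, 10.04 and 10.39 in 34 DL arrays. The second, SNOWBALL_025886_s_st, had 8.73, 9.13 and 9.60 in AS and 8.88, 9.23 and 9.65 in DL arrays. Both were bright in every array, overlapped over nearly their whole range and differed by -0.08 and -0.14 between AS and DL.

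The third, SNOWBALL_026545_s_st, had 6.13, 6.86 and 7.61 in AS arrays and 0.98, 3.33 and 4.80 in DL arrays. The mean difference was 3.55 on the log2 scale, for which no fold is given since DL cells lay around background, with 3.46 in FP and 3.65 in FS cells and between 2.59 and 4.71 over the 9 states. All 34 AS arrays, against 18 of 34 DL arrays, were above array background. The separation thus rested on 1 of the 3 probe sets, and only in DL cells did this probe set cross the background.

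The spread of the third probe set also differed between the breeds. Its SD between the 2 cultures of a group was 0.29 in AS and 1.03 in DL cells. In AIM on day 7 the 3 AS arrays had 6.13, 6.17 and 6.20 and the 4 DL arrays 2.46, 3.68, 3.52 and 2.54, and on day 14 in AIM the DL arrays ran down to 0.98. Within AS cells the third probe set followed the other 2 (Pearson r = 0.66 with each, over 34 arrays that share the medium and day effects), whereas within DL cells r was -0.06 with the first and -0.14 with the second. The first and the second followed each other in both breeds (r = 0.91 in AS and 0.91 in DL).

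**Figure D2:**
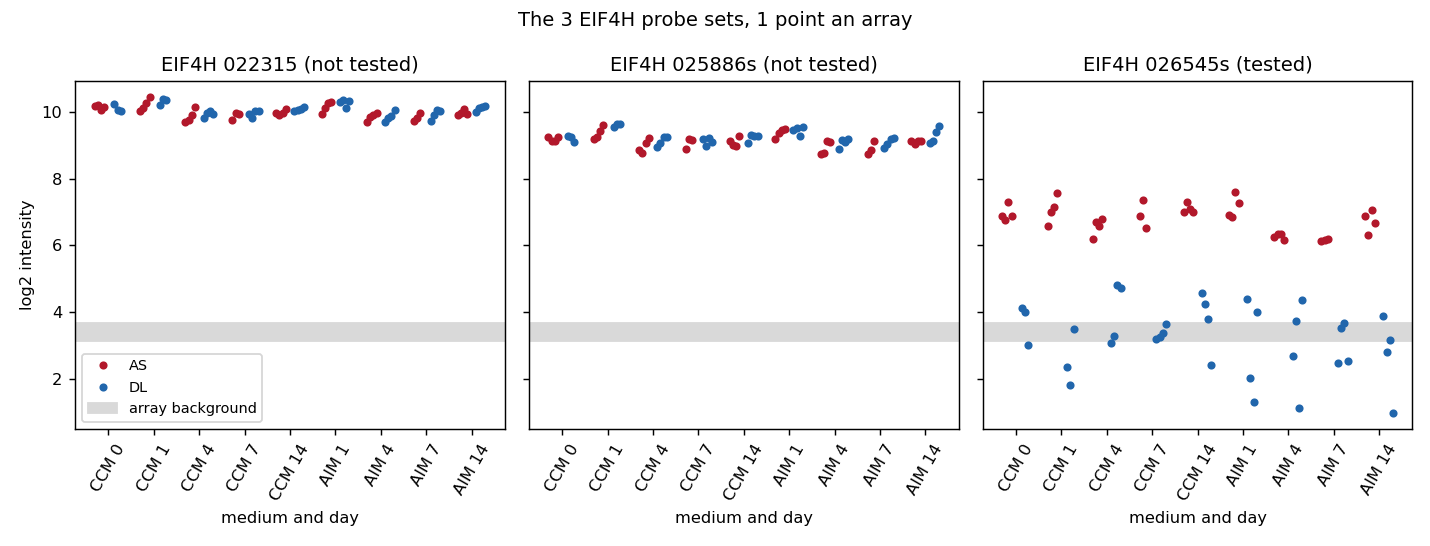
Log2 intensity (vertical axis) of the 3 EIF4H probe sets by medium and day (horizontal axis), 1 point an array, AS in red to the left of DL in blue, with array background in grey. The breeds lie on each other near 10 and 9 in the first 2 probe sets and are 3.55 apart on average in the third, where the DL points scatter across the band.

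TNFRSF17, the BCMA receptor through which plasma cells respond to the cytokines BAFF and APRIL, had 2.79, 3.39 and 3.90 (lowest, median and highest) in AS arrays and 5.29, 5.71 and 6.54 in DL arrays. Its signal was above background in 17 of 34 AS arrays and in 34 of 34 DL arrays. The mean difference was -2.47 on the log2 scale, with -2.59 in FP and -2.35 in FS cells, and no fold is given since AS cells lay around background. The SD between cultures of a group, which come from 1 pool of pigs, was 0.23 in AS and 0.22 in DL cells. On day 0 the 4 AS cultures had 3.32, 3.04, 3.05 and 3.21 and the 3 DL cultures 5.65, 5.62 and 5.63, and the breeds did not overlap on that day.

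MS4A1, the B cell marker CD20, averaged 2.25 in AS and 2.23 in DL cells and was above background in 0 of 68 arrays. SDC1, the plasma cell marker CD138, averaged 5.27 in AS and 5.20 in DL cells, and TNFRSF13B, the related receptor TACI, 5.39 in AS and 5.28 in DL cells. CD79A, SDC1, IRF4, POU2AF1 and TNFRSF13B were above background in all 68 arrays and CD79B in 61. Of the 7 markers of B and plasma cells with a probe set, 3 were tested for a breed difference and 0 passed (limma, adjusted p = 0.42 for CD79A, 0.78 for CD79B and 0.47 for IRF4). The other 4 were not tested.

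NTPCR, a nucleoside triphosphatase, was well above background in all 68 arrays. It had 5.79, 6.86 and 7.43 in AS arrays and 7.78, 8.60 and 9.12 in DL arrays, a difference of -1.75 (3.36-fold lower in AS). The difference lay between -1.49 and -1.90 in the 9 states, and the SD between cultures was 0.20 in AS and 0.09 in DL cells. The gap of 0.35 between the highest AS array, in CCM on day 4, and the lowest DL array, in AIM on day 4, was narrower than the difference within any medium and day.

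GRID1, a delta type subunit of the glutamate receptors, had 4.45, 5.78 and 7.24 in AS arrays and 5.80, 7.46 and 8.52 in DL arrays (difference -1.46, 2.75-fold lower in AS). The breeds overlapped over all arrays, with AS cells in CCM at the level of DL cells in AIM. Within the states the difference was between -0.83 and -2.07.

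PDE1C, a phosphodiesterase that is switched on by calcium and calmodulin and cleaves cyclic AMP and cyclic GMP, had 4 probe sets. The tested one, SNOWBALL_019892_st, had 2.76, 4.94 and 6.93 in AS arrays and 4.75, 6.42 and 8.46 in DL arrays (difference -1.54, 2.90-fold lower in AS), and was above background in 31 of 34 AS and 34 of 34 DL arrays. The 3 untested ones were dim, with means between 2.42 and 3.28 in AS and between 3.03 and 3.52 in DL cells. Of these, SNOWBALL_019774_s_st (-0.47) and SNOWBALL_038917_st (-0.61) differed in the same direction, whereas SNOWBALL_043102_st differed by 0.01. The former 2 followed the tested one more closely within DL cells (r = 0.84 and 0.86) than within AS cells (r = 0.46 and 0.49).

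ND5, a subunit of complex I encoded in the mitochondrial genome, was the brightest of the tested probe sets. It had 9.39, 9.80 and 10.76 in AS arrays and 10.52, 11.16 and 11.81 in DL arrays (difference -1.23, 2.34-fold lower in AS). The breeds overlapped by 0.24 through AS FP replicate 1 in AIM, and without that culture line no AS array reached a DL array. The additional files also name probe sets for ND3 and ND6 of the same complex, which were looked at after the values of ND5 were seen. ND3 averaged 10.84 ± 0.27 in AS and 11.53 ± 0.20 in DL cells and ND6 7.59 ± 0.37 in AS and 8.54 ± 0.41 in DL cells (SD, n = 34 arrays each). Both are named in the study's file on the breed comparison and are therefore no independent sample of the mitochondrial transcripts.

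MPP6, now also called PALS2, is a membrane-associated guanylate kinase (MAGUK) scaffold protein with 3 probe sets. SNOWBALL_019816_st had 4.58, 5.36 and 5.95 in AS arrays and 5.65, 6.48 and 7.19 in DL arrays, a difference of -1.17. SNOWBALL_034304_st had 4.69, 5.30 and 5.98 in AS arrays and 5.91, 6.49 and 7.37 in DL arrays, a difference of -1.23. These 2 probe sets agreed in size and followed each other within both breeds (r = 0.75 in AS and 0.88 in DL). The third, SNOWBALL_034962_st, was above background in 0 of 34 AS and 1 of 34 DL arrays and differed by -0.31.

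TMEM225B, a predicted membrane protein, had the lowest signal of the tested probe sets in AS cells. It had 2.26, 2.86 and 3.98 in AS arrays and 3.26, 4.26 and 5.04 in DL arrays (difference -1.27). Above background were 7 of 34 AS arrays and 30 of 34 DL arrays. The 4 DL arrays that were not above it were part of the 8 DL arrays in AIM on days 4 and 7, whose values ran between 3.26 and 3.69.

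GNA14, an alpha subunit of the Gq family that activates phospholipase C beta, had 2 tested probe sets. SNOWBALL_003587_st had 3.58, 6.16 and 7.50 in AS arrays and 5.50, 7.03 and 8.46 in DL arrays (difference -0.97). SNOWBALL_003666_s_st had 4.14, 5.29 and 6.39 in AS arrays and 4.70, 6.15 and 7.56 in DL arrays (difference -0.83). The breeds overlapped widely in both, and the 2 probe sets followed each other (r = 0.90 in AS and 0.94 in DL).

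CELA2A, a chymotrypsin-like elastase of the pancreas, was the second gene with a higher signal in AS cells. SNOWBALL_009044_s_st had 4.28, 4.77 and 5.18 in AS arrays and 3.42, 3.89 and 4.32 in DL arrays (difference 0.86), and the breeds overlapped by 0.04. SNOWBALL_009131_st had 3.55, 4.43 and 5.04 in AS arrays and 2.74, 3.77 and 4.47 in DL arrays (difference 0.65). These 2 probe sets did not follow each other within a breed (r = -0.10 in AS and -0.16 in DL), and the third, SNOWBALL_009200_s_st, differed by 0.14. Of the 4 acinar cell markers with a probe set, CTRC, a related protease, averaged 4.53 in AS and 4.53 in DL cells and was above background in all 68 arrays, whereas CPB1 was above it in 0, PNLIP in 1 and CPA1 in 30 of 68 arrays.

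Whether the difference reached over the neighbouring genes was looked at in the order of RefSeq genes. Among genes named by the platform annotation, a tested probe set was found for 5 of the neighbours. ND6, next to ND5, has a tested probe set named by the additional files and was lower in AS cells, as ND5 was. It averaged 7.59 in AS and 8.54 in DL cells (above). As ND6 is named in the study's file on the breed comparison, its difference was part of how it was found, and nothing is read from it. LIMK1, a kinase gene next to EIF4H, was lower in AS cells by 0.35 ± 0.08 (log2, SE; limma, adjusted p = 6.7e-04), opposite in direction to EIF4H probe set SNOWBALL_026545_s_st and in the same direction as the small differences of the other 2. LAT2 on the other side of EIF4H (0.07), GSPT1 beside TNFRSF17 (-0.06), DFNA5 beside MPP6 (-0.10) and GNAQ beside GNA14 (0.04) did not pass (adjusted p from 0.27 to 0.53). Over all tested probe sets 18.3% passed between the breeds.

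How the 10 genes responded to adipogenic induction was tested with limma over all arrays, AIM against CCM on the same day. On day 1, 5 of the 13 tested probe sets were lower in AIM and 0 higher, against 17.6% lower and 10.4% higher over all tested probe sets. On day 4, 6 were lower and 1 higher, against 29.5% lower and 19.6% higher. On day 7, 7 were lower and 2 higher, against 27.4% lower and 17.7% higher, and on day 14, 5 were lower and 4 higher, against 27.7% lower and 20.9% higher. The median difference of the members was -0.24, -0.62, -0.54 and -0.35 on days 1, 4, 7 and 14, and that of all tested probe sets lay between -0.05 and -0.01. These counts rest on few genes with several probe sets each for MPP6, GNA14 and CELA2A.

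**Figure D3:**
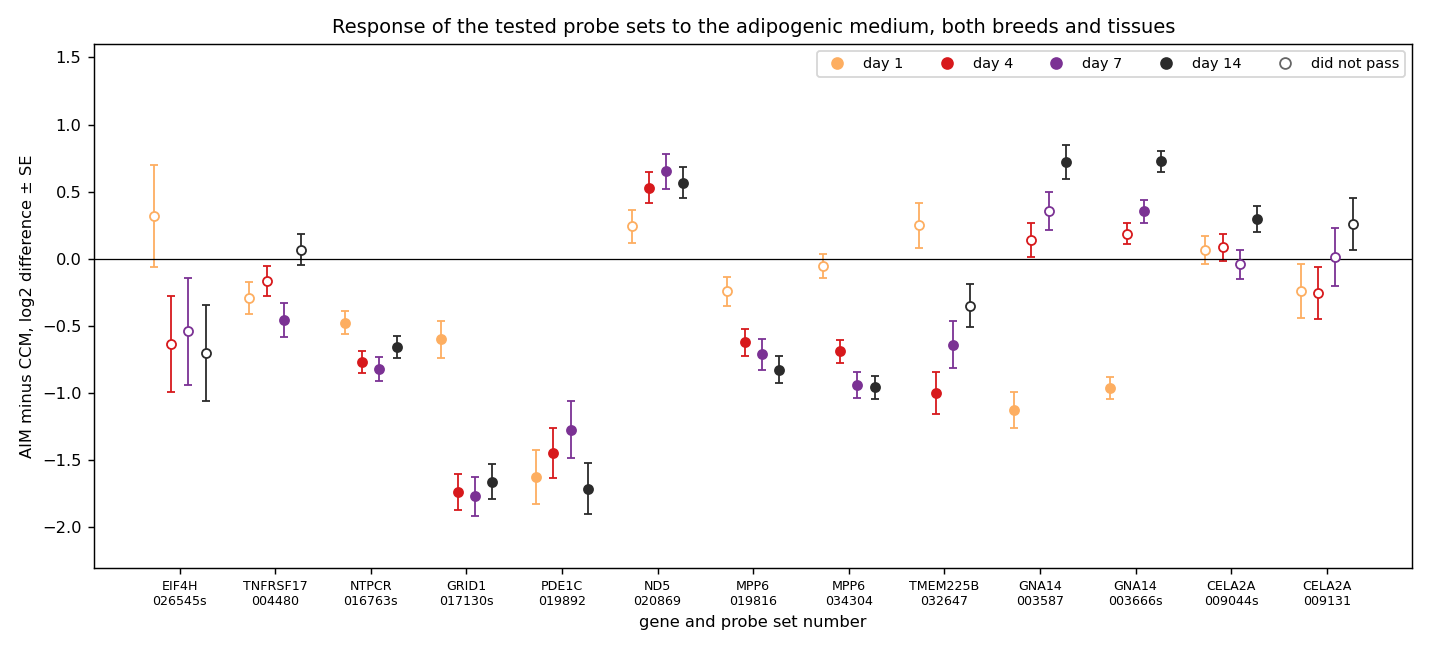
AIM minus CCM as log2 difference with its SE (vertical axis) for the 13 tested probe sets (horizontal axis), with 1 point for each of days 1, 4, 7 and 14, filled where the adjusted p was under 0.01. GRID1, PDE1C and NTPCR were lower in AIM on all 4 days, ND5 was higher from day 4, and both GNA14 probe sets lay below 0 on day 1 and above it on day 14.

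GRID1 and PDE1C had the largest responses. GRID1 was lower in AIM by 0.60 ± 0.14 on day 1 and by 1.74 ± 0.13, 1.77 ± 0.15 and 1.66 ± 0.13 on days 4, 7 and 14 (SE; limma, adjusted p = 6.7e-04, 3.2e-14, 5.3e-13 and 1.2e-13). On day 14 the AS arrays had 4.91, 5.19, 4.48 and 4.62 in AIM and 6.81, 7.00, 6.92 and 6.70 in CCM. The DL arrays of that day had 6.94, 7.40, 6.61 and 6.53 in AIM and 8.13, 8.18, 8.12 and 8.12 in CCM. The media did not overlap in either breed, and the AIM level of DL cells was close to the CCM level of AS cells.

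PDE1C was lower in AIM on each day, by 1.63 ± 0.20, 1.45 ± 0.19, 1.27 ± 0.21 and 1.71 ± 0.19 (adjusted p = 2.5e-08, 2.4e-08, 2.7e-06 and 5.6e-10). On day 1 the AS arrays had 4.62, 5.06, 4.49 and 4.83 in AIM and 5.64, 6.93, 5.92 and 6.87 in CCM. The DL arrays had 6.47, 6.59, 6.37 and 6.75 in AIM and 8.27, 8.46 and 8.05 in CCM. On day 4 in AIM the AS arrays had 4.24, 3.38, 2.76 and 3.86, so that only there and on day 7 did PDE1C come down to array background.

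NTPCR was lower in AIM on all days, by 0.48 ± 0.08, 0.77 ± 0.08, 0.82 ± 0.09 and 0.66 ± 0.08 (adjusted p = 1.8e-05, 1.1e-10, 4.6e-10 and 5.0e-09). On day 4 AS cells had 6.35 ± 0.23 in AIM and 7.04 ± 0.29 in CCM (SD, n = 4 each), and DL cells 7.84 ± 0.06 in AIM and 8.69 ± 0.04 in CCM (SD, n = 4 each). The media did not overlap within either breed on that day.

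MPP6 fell in AIM from day 4 on in both tested probe sets. SNOWBALL_019816_st differed by -0.24 on day 1 (adjusted p = 0.076) and fell by 0.62, 0.71 and 0.83 on days 4, 7 and 14 (adjusted p = 1.5e-06, 1.1e-06 and 5.5e-09). SNOWBALL_034304_st differed by -0.05 on day 1 and fell by 0.69, 0.94 and 0.96 (adjusted p = 8.3e-09, 9.0e-11 and 2.9e-12).

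ND5 rose in AIM by 0.53 ± 0.12, 0.65 ± 0.13 and 0.57 ± 0.12 on days 4, 7 and 14 (adjusted p = 1.4e-04, 4.1e-05 and 5.5e-05), while the difference of 0.24 on day 1 did not pass. With all 72 arrays the call on day 7 did not hold (0.40, adjusted p = 0.019). ND3 rose by 0.36, 0.39 and 0.43 on the same days (adjusted p = 2.0e-04, 3.2e-04 and 1.5e-05), and ND6 had 0.41, 0.27 and 0.21 and did not pass (adjusted p from 0.070 to 0.39). ND5 was 1 of only 2 genes, with GNA14, for which the difference to CCM passed in the positive direction on more than 1 day.

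TMEM225B fell in AIM by 1.00 ± 0.16 on day 4 and 0.64 ± 0.18 on day 7 (adjusted p = 1.1e-06 and 0.0024), with 0.25 on day 1 and -0.35 on day 14. The call on day 7 did not hold without DL FP replicate 2 (adjusted p = 0.027) or without DL FS replicate 1 (0.015). In both breeds its mean level was lowest in AIM on days 4 and 7.

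**Figure D4:**
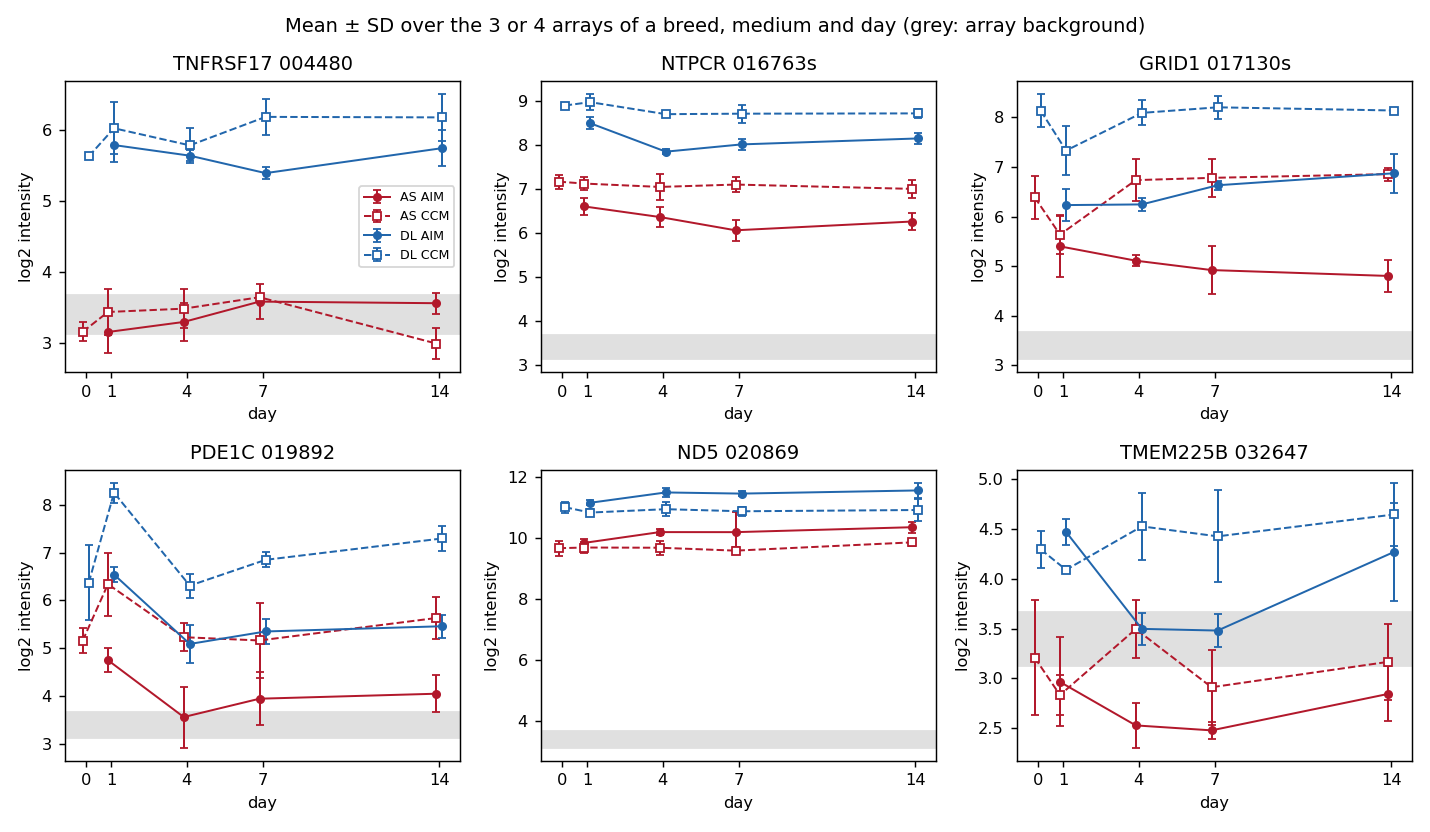
Mean log2 intensity ± SD (vertical axis) of 6 probe sets over the days of culture (horizontal axis), for AS (red) and DL (blue) cells in AIM (filled, solid lines) and CCM (open, dashed lines), with 3 or 4 arrays a point and array background in grey. The AS curves of TNFRSF17 run around the grey band and no DL array of it lies below 5.29, while for GRID1 and PDE1C the AS curves in CCM meet the DL curves in AIM.

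TNFRSF17 did not respond in a uniform way. Over both breeds it passed on day 7, lower in AIM by 0.45 ± 0.13 (adjusted p = 0.0025), and that call did not hold without AS FS replicate 2 (adjusted p = 0.021) or DL FP replicate 2 (0.013). In DL cells of day 7 the arrays had 5.40, 5.50, 5.29 and 5.40 in AIM and 6.10, 6.54, 5.95 and 6.18 in CCM (difference -0.79, adjusted p = 8.8e-05). In AS cells of day 14 the arrays had 3.44, 3.59, 3.45 and 3.76 in AIM and 2.79, 2.81, 3.17 and 3.18 in CCM (difference 0.57, adjusted p = 0.0031), values at the height of array background. This last call did not hold without any of the 4 AS culture lines (adjusted p from 0.011 to 0.050), and the difference between the breeds in their response was not tested.

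EIF4H probe set SNOWBALL_026545_s_st did not pass on any of the 4 days. Its differences were 0.32, -0.63, -0.54 and -0.70, with SE from 0.36 to 0.40, the largest among the tested probe sets. The fit used 1 spread for both breeds, and the SD between cultures was 1.03 in DL but 0.29 in AS cells. The test thus says little about AS cells. On day 7 the AS arrays had 6.13, 6.17 and 6.20 in AIM and 6.90, 7.36 and 6.52 in CCM. On days 1, 4 and 14 the media overlapped in AS cells. A response with the spread of AS cells alone was not tested. CELA2A passed only on day 14 and only in SNOWBALL_009044_s_st, higher in AIM by 0.30 ± 0.10 (adjusted p = 0.0088). That call was kept in 5 of 16 other settings and its adjusted p ran up to 0.069, as without DL FS replicate 2.

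GNA14 turned from lower to higher during adipogenesis. On day 1 both probe sets were lower in AIM, by 1.13 ± 0.13 and 0.96 ± 0.08 (adjusted p = 1.3e-08 and 4.9e-12). On day 1 the AS arrays of SNOWBALL_003666_s_st had 4.36, 4.14, 4.36 and 4.28 in AIM and 4.71, 4.91, 5.11 and 5.17 in CCM, and the DL arrays 4.70, 4.77, 4.89 and 5.00 in AIM and 6.07, 6.04 and 6.09 in CCM. By day 14 both probe sets were higher in AIM, by 0.72 ± 0.13 and 0.73 ± 0.08 (adjusted p = 6.5e-06 and 2.1e-10). On days 4 and 7 the differences were 0.14 and 0.36 in SNOWBALL_003587_st, neither of which passed, and 0.19 and 0.35 in SNOWBALL_003666_s_st, of which that on day 7 did (adjusted p = 6.2e-04). The media did not overlap in either breed on day 1, and in both breeds the AIM arrays of day 1 were the lowest of all states.

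Within each breed alone, 4 of 13 probe sets passed on day 1 in AS and 4 in DL cells, against 18.7% and 15.1% of all tested probe sets. On days 4, 7 and 14, 7, 6 and 8 passed in AS (40.5%, 34.6% and 38.8% of all) and 8, 10 and 8 in DL cells (35.7%, 34.0% and 36.7% of all). On day 1 SNOWBALL_003587_st of GNA14 was lower in AIM by 1.52 in AS and by 0.73 in DL cells, and SNOWBALL_003666_s_st by 0.69 in AS and by 1.24 in DL cells, so that its 2 probe sets placed the larger response in different breeds. Differences between the breeds in the response were not tested, since constancy of the breed difference was part of the choice of the genes.

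How the cells of the 2 tissues differed was tested over both breeds, media and all days. Each tissue was 1 pool of cells for each breed, so that these p-values cover only the variation among repeat cultures of those pools. Of the 13 probe sets, 1 was higher and 2 were lower in FP than in FS cells, against 2.25% higher and 2.03% lower over all tested probe sets. Both GNA14 probe sets were lower in FP, by 0.49 ± 0.07 and 0.49 ± 0.04 (adjusted p = 2.6e-06 and 5.1e-11). GRID1 was higher in FP by 0.39 ± 0.07 (adjusted p = 2.1e-04), a call that did not hold with all 72 arrays (adjusted p = 0.13), without DL FP replicate 2 (0.011) or without DL FS replicate 1 (0.016). The other 10 probe sets, with differences from -0.02 to 0.16, did not pass.

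Whether the tissue difference of GNA14 varied over the days in AIM was not tested, and its values are given as a description. On day 1 SNOWBALL_003587_st had 5.03 and 4.00 in AS FP and 3.58 and 4.14 in AS FS cultures, and 5.90 and 5.71 in DL FP and 5.50 and 6.07 in DL FS cultures. In this probe set the tissues overlapped within both breeds on that day. In SNOWBALL_003666_s_st the DL cultures of that day did not overlap, with 4.70 and 4.77 in FP and 4.89 and 5.00 in FS. On day 14 in AIM SNOWBALL_003587_st had 6.02 and 6.57 in AS FP and 7.22 and 7.50 in AS FS cultures, and 7.19 and 7.81 in DL FP and 8.00 and 8.46 in DL FS cultures. No FP culture reached an FS culture of its breed on that day. Over days 1 to 14 FP was lower than FS in AIM by 0.63 ± 0.10 and 0.71 ± 0.06 (adjusted p = 3.6e-05 and 6.5e-11) and in CCM by 0.45 ± 0.10 and 0.34 ± 0.06 (adjusted p = 0.0036 and 2.2e-04). Over all tested probe sets 2.38% passed between the tissues in AIM and 2.36% in CCM, among the members the 2 of GNA14 in AIM and these and GRID1 in CCM. In CCM the call of GRID1 was kept in 8 of 16 other settings (adjusted p up to 0.72, with all 72 arrays) and that of SNOWBALL_003587_st in 10 of 16 (up to 0.077, without DL FP replicate 1).

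Whether the response to AIM differed between FP and FS cells was tested as an interaction on each day. None of the 13 probe sets passed on any of the 4 days with limma, while 2, 1, 2 and 1 had an unadjusted p under 0.05 on days 1, 4, 7 and 14. Over all tested probe sets 0%, 0.0327%, 0.0273% and 0.0927% passed. The nearest to the threshold was SNOWBALL_003666_s_st of GNA14 on day 4, with -0.67 ± 0.15 (FP minus FS, adjusted p = 0.074).

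**Figure D5:**
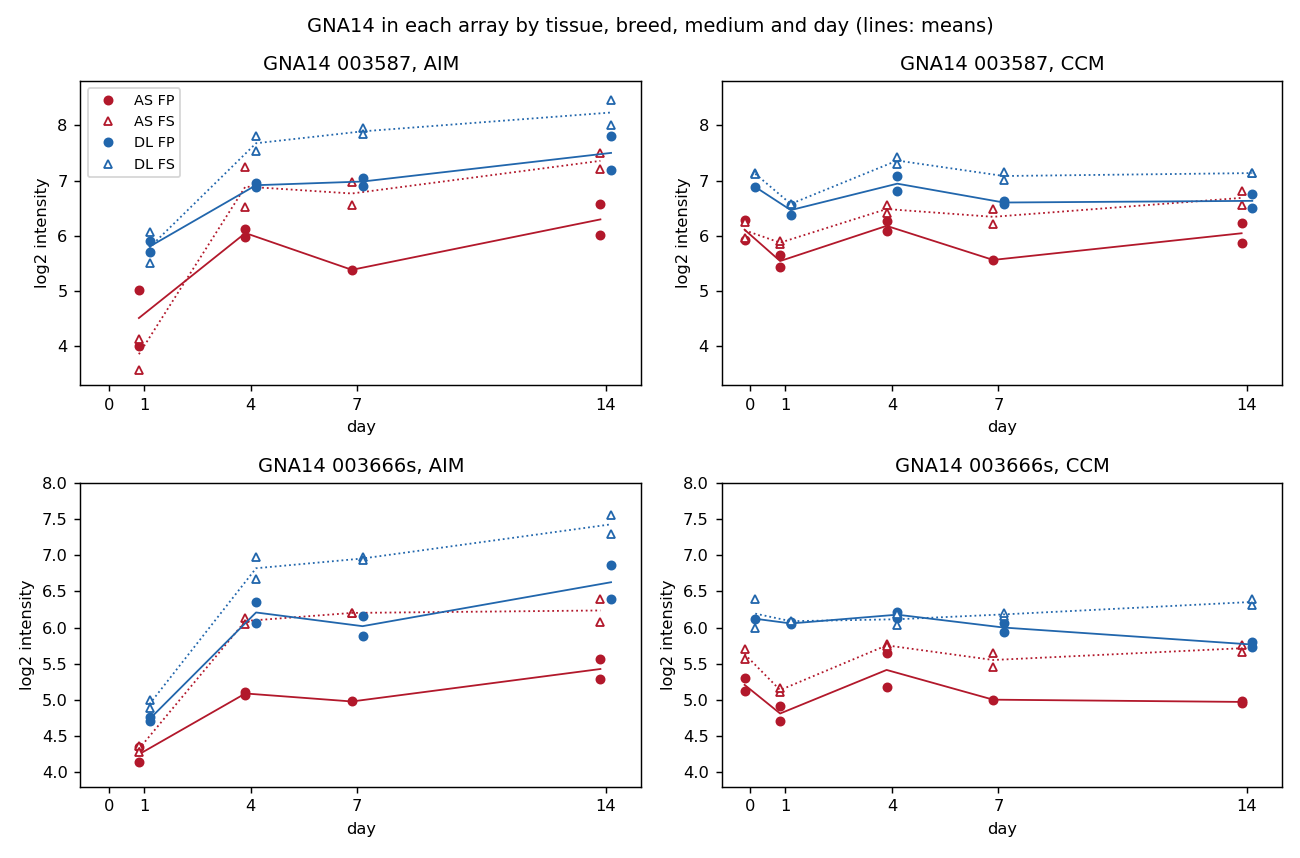
Log2 intensity (vertical axis) of both GNA14 probe sets by day (horizontal axis), in AIM (left) and CCM (right), 1 point an array, AS in red and DL in blue, FP as filled circles and FS as open triangles, with lines through the means. In AIM the values of day 1 are the lowest in each breed, and on day 14 every FS array lies above the FP arrays of its breed.

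Over time in CCM alone, day 14 against day 0, 1 of 13 probe sets passed, against 31.7% of all tested probe sets. It was SNOWBALL_034304_st of MPP6, higher on day 14 by 0.43 ± 0.09 (adjusted p = 1.9e-04), while the other MPP6 probe set had 0.08. PDE1C had 0.60 ± 0.20 (adjusted p = 0.016).

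The genes whose pattern over the 68 arrays came nearest to each member were sought by Pearson's r, which is given as a description, since all points share the breeds, media and days. The pattern of EIF4H probe set SNOWBALL_026545_s_st came nearest to that of DCP1A, a subunit of the mRNA decapping complex (r = 0.86), which averaged 7.75 in AS and 5.77 in DL cells. Within the breeds this likeness shrank to r = 0.49 in AS and 0.12 in DL cells. TNFRSF17 came nearest to AKR1A1, an aldehyde reductase (r = 0.89 over all arrays, 0.23 within AS and 0.24 within DL), with 5.00 in AS and 7.34 in DL cells. These 2 likenesses thus lay mostly in the split between the breeds.

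Other likenesses were closer within the breeds. GRID1 came nearest to MPP6 probe set SNOWBALL_034304_st (r = 0.89 over all arrays, 0.84 within AS and 0.82 within DL) and to SLC2A10, a glucose transporter (r = 0.87, 0.87 and 0.79 in the same order). PDE1C came nearest to BMPR1B, a receptor for bone morphogenetic proteins (r = 0.85, 0.79 and 0.86). GNA14 came nearest to MECOM, a transcription factor, with r = 0.78 over all arrays, 0.70 within AS and 0.73 within DL for SNOWBALL_003587_st. ND5 came nearest to RBM17, a splicing factor (r = 0.92, 0.58 and 0.66), and NTPCR to the MPP6 probe set SNOWBALL_019816_st (r = 0.90, 0.66 and 0.60), both lower within the breeds than over all arrays. The next of NTPCR was TNFRSF17 (r = 0.89, -0.22 and 0.51).

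Other genes of the members' pathways were tested from lists, which were made by pathway but with earlier results of these data known. Of 8 tested genes of translation initiation, EIF4EBP2, a repressor of the cap-binding protein, was higher in AS by 0.16 and PDCD4, an inhibitor of the helicase eIF4A, lower by 0.28 (limma, adjusted p = 0.0049 and 3.4e-04). Of 7 tested genes of BAFF and APRIL signalling 1 passed, the BAFF receptor TNFRSF13C, lower in AS by 0.36 (adjusted p = 2.9e-05). Of 6 tested glutamate receptor genes and partners GRIN3A alone passed, higher in AS by 1.00 (adjusted p = 6.0e-15), opposite in direction to GRID1. This was the largest difference in the pathway lists, and 18.3% of all tested probe sets passed in this comparison.

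Among 10 tested phosphodiesterases and calmodulins, PDE3A (0.48) and PDE7B (0.42) were higher and PDE4B (-0.56) and CALM2 (-0.21) lower in AS. Among 8 MAGUK scaffolds and partners, LIN7A (0.84) and CASK (0.18) were higher and the adhesion molecule CADM1 (-0.34) lower. Among 8 genes listed with the Gq pathway, the calcium channel ITPR1 was higher (0.24) and the phospholipases PLCB4 (-0.44) and PLCB1 (-0.25) lower. GNA12 (-0.15), also lower, is in that list but belongs to another family of G proteins. Of 6 nucleotide hydrolases SAMHD1 was lower by 0.30, and the 1 tested pancreatic protease did not pass. Adjusted p lay at or under 0.0043 in all of these calls.

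The same lists were compared between AIM and CCM on day 14, where 20.9% of all tested probe sets were higher and 27.7% lower. In AIM 1 of 10 phosphodiesterases and calmodulins was higher and 5 were lower, with PDE7B higher by 1.81 and PDE3A and PDE1A lower by 1.41 and 1.36 beside PDE1C. Of the 6 glutamate receptor genes 3 were lower and 0 higher, led by GRIN3A (log2 difference -2.66) and GRIA1 (-1.80) beside GRID1. Of 8 genes listed with the Gq pathway 2 were higher and 4 lower, with RGS2, which shortens Gq signals, higher by 2.78 and PLCB1 lower by 1.18. Of the 7 BAFF and APRIL genes 4 were lower and 0 higher, among them the genes of both cytokines, TNFSF13B (-1.50) and TNFSF13 (-1.15). Of 8 MAGUK scaffolds and partners 2 were lower and 0 higher, of 8 genes of translation initiation 2 were lower and 3 higher, of 6 nucleotide hydrolases 1 was lower and 4 higher, and the 1 pancreatic protease did not pass.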

How the data were processed

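Values were taken from the series value table, which holds log2 intensities of 47845 probe sets on 72 arrays. Per the study's methods, the authors made these deposited log2 values with Expression Console by RMA, which corrects the background, normalizes and summarizes the probes. The labels name GCOS 1.1.1. The genome build behind the probe sets is not given in the sources used here. Probe sets were named from the platform annotation (446 symbols updated, 194 in conflict with the study's additional files left unnamed) and, for 6 probe sets of the members, from those files, of which no values or fold changes were used.

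Probe sets with an SD over 0.25 and a value above the array median in at least 8 arrays were tested (18335). limma 3.58.1 in R 4.3.3 estimated the 36 group means, treating arrays of 1 culture line (same breed, tissue and replicate number) as a random block (correlation 0.026), followed by eBayes and Benjamini-Hochberg adjustment over all tested probe sets. Calls were made at an adjusted p under 0.01. Recovery of known changes was tested on simulated data. The number of arrays, 2 a group, limits the precision. Where both were kept, the 2 arrays of a group differed by an SD of 0.32 to 0.53 over the tested probe sets, so that neither was a copy of the other. Arrays of different groups were not compared for copies.

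The members and lists were chosen with earlier results of these data known. All members and their probe sets are named, with the 3 nearest patterns of a probe set, up to 4 passing genes of a list and the RefSeq neighbours, of which the text gives those that a result turns on. No sequence is printed. Alternatives changed the filter, the scaling, the block, the arrays used, the variance model and the background.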

Additional observations from a re-analysis of the deposited data

How the results depend on the processing

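In 220 of 220 recalculations the breed differences of the 20 probe sets moved by less than the SD between cultures of a group. These used other scalings, all 72 arrays or left out a culture line. Such a mean over many groups of the same pools moves little, and it chose the genes, so that nothing is read from this. The number of probe sets that separated the breeds, 3, ran from 3 to 5 when each culture line was left out, the additional ones being ND5 and CELA2A without AS FP replicate 1 and CELA2A without DL FS replicate 2. Recalculated single calls were kept in 1390 cases, lost in 109 and turned in sign in 0. Without a culture line the number of members passing between AIM and CCM was 5 on day 1, 7 to 8 on day 4, 7 to 10 on day 7 and 8 on day 14, that between FP and FS 2 to 3, and that in CCM over time 1 to 2 (2 without AS FP replicate 1, AS FS replicate 2 or DL FP replicate 1). Within DL cells it was 2 to 5 on day 1 (2 without DL FP replicate 1 or 2), 4 to 8 on day 4 (4 without DL FP replicate 2), 5 to 11 on day 7 (6 without DL FP replicate 2, 5 without DL FS replicate 1) and 7 to 8 on day 14. Within AS cells it was 4 on day 1, 5 to 7 on day 4, 5 to 6 on day 7 and 4 to 8 on day 14 (4 without AS FS replicate 2). With all 72 arrays as labelled, 1 probe set passed within AS cells on day 7, against 6 with 68 arrays, the 2 AS FP arrays of that day being among those added. With the 95th percentile of the background controls as the background, 3 of the 20 probe sets were above it in all arrays, against 10 with their mean.

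The pairing of cultures by replicate number was not taken as given. In 7 of 14 pairs of an AIM and a CCM group (same breed, tissue and day) the differences between replicates 1 and 2 correlated above 0.1 (0.00 to 0.25, median 0.10), against a median of 0.02 over all pairs of groups. With the replicate number as a fixed replicate block, 5, 7, 9 and 9 probe sets passed on days 1, 4, 7 and 14 and 3 between the tissues, and no count of members moved by over 1.5 times. The base composition of the probes was not known, so that a dim value could not be set against background controls of its own class, and single probe sets near 3 to 5 carry this limit.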
